A study of Schizosaccharomyces pombe with 24 samples.

Results

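The comparison set the fission yeast strain ago1D, in which the single Argonaute gene ago1 is deleted, against its wild type at matched times after the removal of nitrogen. All 6 ago1D libraries and all 6 wild-type libraries were compared, 12 of the 24 libraries of the study. Each ago1D library was matched to the wild-type library with the same labelled time. The libraries of the other strains, clr4D (975 h+ clr4D::NatMX6) and dcr1D (975 h+ dcr1D::NatMX6), also entered the fits behind the feature tests. There they took part in the low-count filter, the time terms and the estimate of spread. The ago1D strain carries 975 h+ ago1D::NatMX6 and the wild type (wt) is 975 h+, so that both share a background and the mating type h+. Cells were grown at 32 °C in Edinburgh minimal medium (EMM) with supplements and then washed into EMM without nitrogen. They were sampled at 0, 1, 2, 4, 10 and 24 h, where 0 h is labelled as the control and the other times as nitrogen starvation. Small RNA of 20 to 30 nt was cut from a gel and sequenced with a TruSeq small RNA kit. Each strain and time had 1 library, so no time had replicates within a strain, and nothing in the labels says whether the times of a strain came from separate cultures. The p-values below therefore measure the spread between libraries, which in the fits are those of all 4 strains.

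In fission yeast, Dicer (Dcr1) cuts double-stranded RNA from the repeats around the centromeres into small interfering RNA (siRNA), and Argonaute (Ago1) carries that siRNA in the RITS complex back to the repeats. There it brings in the histone H3 lysine 9 methyltransferase Clr4, which builds heterochromatin, and the RNA polymerase complex that makes more double-stranded RNA. Cells without Ago1 are known to lose most of their heterochromatic siRNA. Reads of the same length also come from the breakdown of messenger RNA, transfer RNA (tRNA) and small nucleolar RNA (snoRNA). A count for such a feature is a level of 20 to 30 nt fragments and does not measure the parent RNA, and in bulk cultures fewer cells of one kind cannot be told from less RNA per cell.

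Between 117245 reads at 24 h and 674555 at 2 h were assigned to annotated features in ago1D, against between 188998 at 24 h and 640322 at 0 h in wt. HTSeq set aside 81.0% to 97.4% of the reads of an ago1D library and 79.4% to 97.0% of those of a wt library for low mapping quality, a class that holds reads with several equal placements. Repeats, near-identical gene copies and most tRNA genes are therefore only partly represented, and no rRNA feature was counted. Counting kept the strands apart: 409 of 424 features buried in exons of the opposite strand still received reads, but only 2 of 33 buried in exons of their own strand did. The sources used here do not say which of the strands was read as sense. Levels are given in CPM, the count scaled by the library's effective size.

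The labelled early times of ago1D did not line up with those of wt. When each library was centred on its strain's mean over time, the ago1D library labelled 2 h was most like wt at 0 h (Pearson r of 0.76 over 4220 features), and its r with wt at 2 h was -0.39. The ago1D library labelled 0 h was most like wt at 1 h (r of 0.44, and -0.18 with wt at 0 h), while that labelled 1 h was most like wt at 2 h (r of 0.33, and 0.24 with wt at 1 h). At 4, 10 and 24 h each ago1D library was most like wt at its own time, with r of 0.19, 0.28 and 0.28. These values describe features that are not independent replicates and share a library, and they carry no test.

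**Figure D1:**
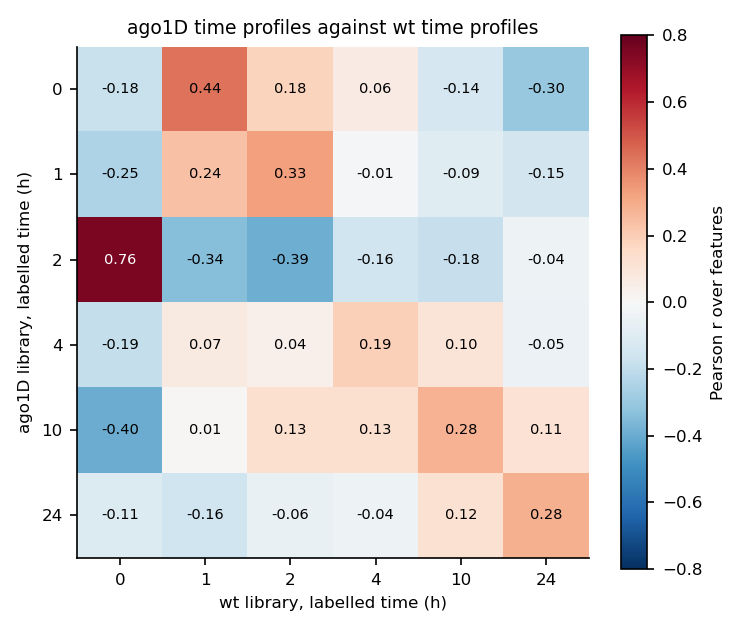
Pearson r over 4220 features between each ago1D library (rows, labelled time in h) and each wt library (columns, labelled time in h), after each library was centred on its strain's mean over time. The highest r of the rows 0, 1 and 2 h lie at wt 1, 2 and 0 h, and those of the rows 4, 10 and 24 h lie on the diagonal.

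Nitrogen-starvation genes, chosen here after their values were seen, showed the same pattern. The gene isp6, a vacuolar serine protease induced by nitrogen starvation, had 1103, 523 and 170 counts in ago1D at the labelled 0, 1 and 2 h, against 37, 645 and 566 counts in wt. The gene isp5, an amino acid permease of the same response, had 139, 44 and 1 counts in ago1D, against 3, 113 and 50 counts in wt at these times. In ago1D the count was highest at 0 h and lowest at 2 h for both genes, and in wt it was lowest at 0 h. The counts of isp5 at 4, 10 and 24 h were 186, 299 and 52 in ago1D and 170, 283 and 163 in wt. Results are therefore given first for 4, 10 and 24 h, where the profiles and labels go together, and then for all 6 times.

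At 4, 10 and 24 h, 375 of 4641 features tested passed (8.08%; edgeR quasi-likelihood test, Benjamini-Hochberg adjusted p below 0.05), of which 203 were higher in ago1D (4.37%) and 172 lower (3.71%). Of the 203 higher features 148 were protein-coding, among them 9 heat-shock chaperone and 5 iron-uptake genes, and 43 were non-coding RNAs on the other strand of genes. Of the 172 lower features 137 were protein-coding, among them ago1 and 65 cytosolic ribosomal protein genes. The lower features also held 5 pericentromeric RNAs, 9 nuclear tRNAs, 9 mitochondrial tRNAs and 5 other mitochondrial features. In the fit of all 6 times, 182 of 4220 features passed (4.31%), 129 higher (3.06%) and 53 lower (1.26%). The fits shared 139 features, 76.4% of the 182 and 37.1% of the 375, all with the same sign.

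The split between gain and loss rested on the scaling. With scaling by total count, 246 features were higher (5.3%) and 38 lower (0.819%) in ago1D at 4, 10 and 24 h, and the median log2 fold change of all features was 0.25 in place of -0.02. The number passing at 4, 10 and 24 h was 142 without wt 24 h, 195 without ago1D 24 h, 202 without ago1D 4 h and 225 without ago1D 10 h. With all 6 times it was 111 without wt 24 h, 294 without ago1D 0 h and 342 without ago1D 2 h. With only the ago1D and wt libraries in the fit, it was 28 over all 6 times and 387 at 4, 10 and 24 h.

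Pericentromeric transcripts had next to no counted small RNA left in ago1D, though repeats are only partly represented in the counts of both strains. These transcripts come from the outer repeats and flanks of the centromeres and are the classical source of siRNA in this yeast. Of 30 such features in the files, 7 had a count in either strain, 5 passed the low-count filter and all 5 passed the test as lower in ago1D at 4, 10 and 24 h. Since these passed the filter through wt, where they are high, their count is no support in itself and the values carry the result.

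SPNCRNA.232, a centromeric long non-coding RNA of chromosome I, had 1 count in all 6 ago1D libraries together, at 1 h, against 101 to 1938 counts per library in wt, with a median of 566 CPM. The lowest wt library, at 10 h, held 312 CPM, and the groups did not overlap at any time. The pooled level over all 6 times was 3464-fold lower in ago1D (exact 95% interval of the counts 621 to 136900, which covers counting error only). Without 0 h, where wt had 1938 counts, it was 1071-fold lower (interval 192 to 42360). No count was seen in ago1D at 4, 10 and 24 h, against 419 in wt, so that the level was at least 194-fold lower with a floor of 3 counts over the group.

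SPNCRNA.359, its counterpart on chromosome II, had no count in any ago1D library, against 701, 44, 67, 73, 91 and 147 counts in wt at 0, 1, 2, 4, 10 and 24 h. Every wt library was above every ago1D library. The pooled level was at least 489-fold lower over all 6 times (floor of 3 counts over the group) and at least 144-fold lower at 4, 10 and 24 h.

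The other 3 tested transcripts had lower wt levels. SPNCRNA.373 of chromosome II had 1 count each at 4, 10 and 24 h in ago1D, against 5 to 149 counts per library in wt. Its pooled level was 110-fold lower over all 6 times (interval 37.3 to 538) and 36.6-fold lower at 4, 10 and 24 h (interval 12.1 to 181.5). SPNCRNA.234 of chromosome I had 1 count in ago1D in all, against 6 to 54 per library in wt, a ratio over all 6 times of 161 (interval 28.3 to 6396). At 4, 10 and 24 h it had 0 counts in ago1D against 54 in wt, at least 25.05-fold lower with a floor of 3 counts over the group. Neither transcript overlapped between the strains in any library.

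SPNCRNA.231 of chromosome I had 4 counts in ago1D in all, against 8 to 77 per library in wt. Its pooled level was 44.7-fold lower over all 6 times (interval 17.1 to 167) and 13.9-fold lower at 4, 10 and 24 h (interval 5.03 to 53.5). Its fall at 4, 10 and 24 h had an adjusted p of 0.0113 (edgeR quasi-likelihood test), and did not pass without ago1D 4 h or without wt 4 h, where the adjusted p reached 0.125. It passed over all 6 times with an adjusted p of 3.21e-05 and also without each single library. The remaining pericentromeric features with counts were SPNCRNA.1172, with 1.83, 2.71 and 0 CPM in ago1D at 4, 10 and 24 h against 2.96, 4.87 and 14.4 CPM in wt, and SPNCRNA.481, with 1 count in all.

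As a share of feature counts, the pericentromeric class took 0.00082% ± 0.00094 in ago1D and 0.164% ± 0.149 in wt (SD, n = 6 each). The share was lower in ago1D at 6 of 6 times, by a mean log2 difference of -7.92 with 0.5 counts added to the class. In ago1D it had 0 counts at 0 and 2 h, so the differences there, -11.93 and -10.85, and the size of the mean depend on that addition. When the signs of the 6 differences were flipped, an exact two-sided permutation test gave p = 0.0312. That is the smallest p the 6 times can give, and over the 7 classes its adjusted value was 0.109. A class at this p could pass only if most of the 7 classes also reached it, so the adjusted value cannot decide. An unpaired exact permutation test of 6 against 6 libraries, which does not use the time labels, gave an adjusted p of 0.0152. The difference at 4, 10 and 24 h was -6.30.

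**Figure D2:**
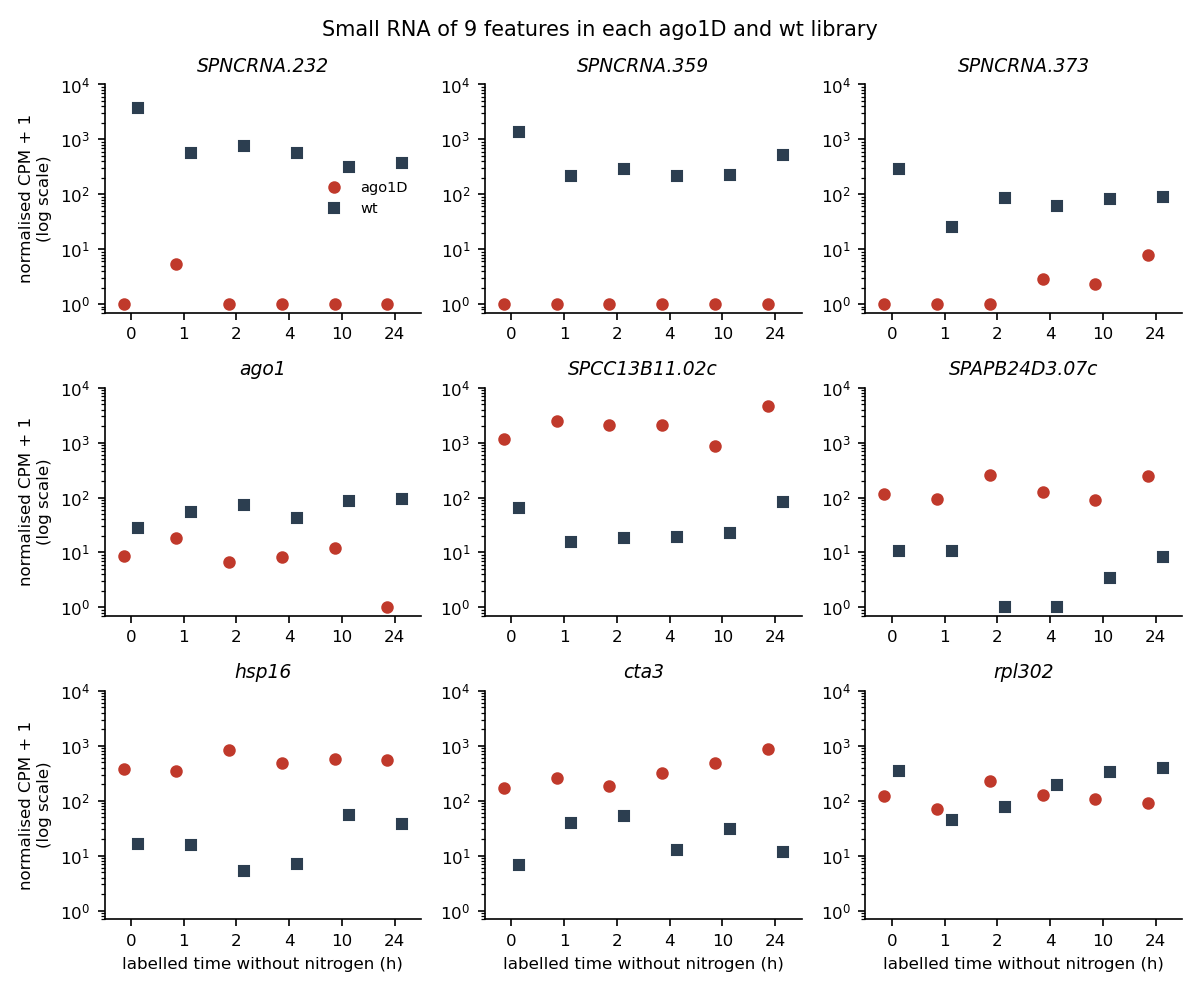
Normalised CPM + 1 on a log scale (y) against labelled time in h (x) for 9 features, with 1 point for each ago1D library (circles) and each wt library (squares). The pericentromeric transcripts SPNCRNA.232, SPNCRNA.359 and SPNCRNA.373 and ago1 lie lower in ago1D at all 6 times, SPCC13B11.02c, SPAPB24D3.07c, hsp16 and cta3 lie higher at all 6 times, and rpl302 changes side between the early times.

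The subtelomeric helicase gene tlh2 is copied between chromosome ends and is silenced by heterochromatin. It had no count in ago1D, against 10, 1, 1, 1, 4 and 9 counts in wt at 0, 1, 2, 4, 10 and 24 h, at least 11.3-fold lower with a floor of 3 counts over the group. In the fits of all 4 strains, it passed over all 6 times, also without each single library, with an adjusted p of 0.00101 (edgeR quasi-likelihood test). Its adjusted p at 4, 10 and 24 h was 0.0261, and it did not pass without ago1D 4 h, ago1D 10 h, ago1D 24 h, wt 10 h or wt 24 h, with values up to 0.166. With only the ago1D and wt libraries in the fit, tlh2 was too low to be tested at 4, 10 and 24 h. It was not called over all 6 times in that setting either, so both calls needed the clr4D and dcr1D libraries. Reads shared with other copies of the helicase were largely set aside, so the locus of these counts is uncertain. Of 12 tested features within 60 kb of chromosome ends, tlh2 alone was lower at 4, 10 and 24 h, beside 3.71% of all features. SPAC977.14c, named after its values were seen, alone was higher, by 1.42 on the log2 scale (adjusted p of 0.00276), beside 4.37% of all features. SPAC977.15, described below as near a chromosome end, was not among the 12. Over all 6 times 2 of 9 were higher and 1 lower. None of the 13 Tf2 retrotransposons in the files had enough counts to be tested.

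The deleted gene itself served as the check of the strain labels. Small RNA of ago1 ranged over 0, 7.52 and 17.3 CPM in ago1D and 27.2, 63.1 and 93.6 CPM in wt (lowest, median and highest of 6 libraries). Every ago1D library was below every wt library, and 22 counts remained in ago1D, against 117 in wt. The log2 fold change was -3.05 (SE 0.41) at 4, 10 and 24 h with an adjusted p of 0.000126, and -2.80 (SE 0.29) over all 6 times, by edgeR's quasi-likelihood test. The sources used here do not say which stretch of the gene was replaced.

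The rest of the machinery showed no call. Of 12 tested RNA interference genes, only ago1 passed at 4, 10 and 24 h, and the list's median log2 fold change was -0.10 beside -0.02 for all features. Dicer's gene dcr1 had 69.4, 74.6 and 62.5 CPM in ago1D and 79.8, 85.2 and 115 CPM in wt at 4, 10 and 24 h, with a log2 fold change of -0.38 (SE 0.30) that did not pass (adjusted p of 0.485). The methyltransferase gene clr4 had 38.3, 52.9 and 20.8 CPM in ago1D against 71.0, 75.4 and 36.0 CPM in wt, with a log2 fold change of -0.67 (SE 0.31) that did not pass either (adjusted p of 0.207). The values of dcr1 did not overlap at these times and those of clr4 did. None of 13 tested heterochromatin factors passed in edgeR or DESeq2, 1 was higher and 1 lower at an unadjusted p below 0.05 in edgeR, and the list median was -0.17. With scaling by total count both list medians changed sign, to 0.18 and 0.14, beside 0.25 for all features.

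Some gains came from single loci with many reads. SPCC13B11.02c, an uncharacterised gene on chromosome III, had 2112, 856 and 4556 CPM in ago1D at 4, 10 and 24 h, against 17.7, 21.9 and 82.8 CPM in wt. Its counts over all 6 times ranged between 456 and 1157 per library in ago1D and between 3 and 32 in wt, with no overlap. The log2 fold change was 5.93 (SE 0.40) at 4, 10 and 24 h, with an adjusted p of 2.86e-08 by edgeR's quasi-likelihood test, and 5.99 (SE 0.37) over all 6 times. The gene was named because earlier results had shown this gain, and its values are a description.

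SPAPB24D3.07c, also uncharacterised, lies wholly opposite the non-coding RNA SPNCRNA.865 on chromosome I. It had 126, 89.5 and 243 CPM in ago1D and 0, 2.43 and 7.20 CPM in wt at 4, 10 and 24 h. No ago1D library of the 6 fell to the highest wt value of 9.73 CPM. The log2 fold change was 5.75 (SE 0.75, adjusted p of 9.29e-05).

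Genes for transport and secreted enzymes followed. The gene cta3, a P-type calcium transport ATPase and a target of the Sty1 stress kinase pathway, had 314, 490 and 882 CPM in ago1D and 11.8, 29.2 and 10.8 CPM in wt at 4, 10 and 24 h. Its log2 fold change was 4.83 (SE 0.36, adjusted p of 9.31e-08), and no library overlapped at any of the 6 times. SPNCRNA.1374 lies opposite 76.5% of it.

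The secreted invertase gene inv1, which splits sucrose, had 96.8, 82.8 and 139 CPM in ago1D and 5.91, 9.73 and 3.60 CPM in wt, again with no overlap at any time. Its log2 fold change was 3.90 (SE 0.46, adjusted p of 3.32e-05). SPAC977.15, a dienelactone hydrolase family gene near a chromosome end, had 18.3, 47.5 and 55.6 CPM in ago1D and 2.96, 0 and 0 CPM in wt, with a log2 fold change of 5.27 (SE of 0.88 and adjusted p of 0.000977). All 3 genes passed in edgeR's quasi-likelihood test also without each single library.

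The amino acid transporter gene dip5 had 126, 128 and 139 CPM in ago1D and 2.96, 4.87 and 7.20 CPM in wt at 4, 10 and 24 h, a log2 fold change of 4.67 (SE of 0.49 and adjusted p of 6.41e-06). The ago1D library labelled 2 h, at 3.71 CPM, lay within the wt range, and the other 5 lay above it. The neighbouring SPCC777.03c overlaps 91.8% of dip5 on the other strand and also rose, by 2.82 on the log2 scale (SE 0.27, adjusted p of 3.04e-06). It had 257, 279 and 236 CPM in ago1D and 29.6, 43.8 and 36.0 CPM in wt at these times.

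**Figure D3:**
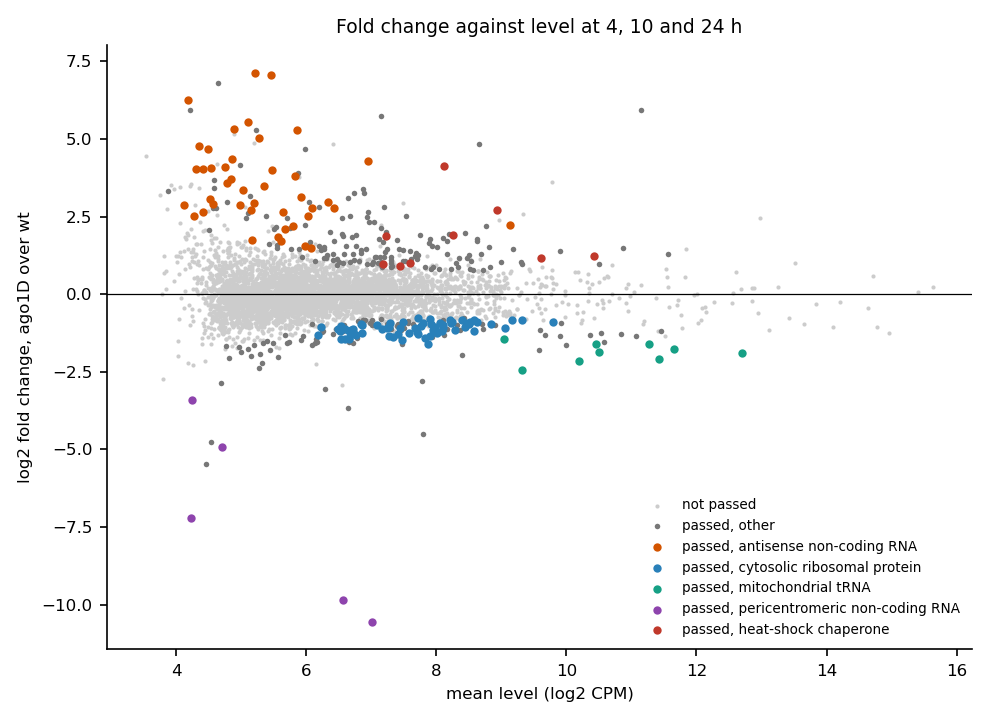
Log2 fold change of ago1D over wt at 4, 10 and 24 h (y) against mean level in log2 CPM (x), with 1 point for each of 4641 features and colours for passing members of 5 lists. The passing pericentromeric RNAs lie far below 0, the passing antisense RNAs lie above 0, and the passing ribosomal protein genes form a band between -1.59 and -0.77.

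Among non-coding RNAs that lie opposite another gene, all calls at 4, 10 and 24 h were gains. A feature was called antisense here when at least 50% of it was covered by a gene on the other strand. Of 790 such features in the files, 185 passed the low-count filter, and 43 rose and 0 fell in ago1D at 4, 10 and 24 h, beside 4.37% of all features higher and 3.71% lower. Some of those that rose, such as SPNCRNA.990 and SPNCRNA.957, had no count in wt at these times. They passed the filter through strains other than wt and could not fall, so 43 against 0 is no support in itself. The median log2 fold change of the 185 was 0.95, against 0.20 for the 84 tested non-coding RNAs without such a partner, of which 8 rose and 7 fell. These medians rest on the same filter and are a description. In the fit of all times 20 of 85 tested antisense RNAs rose and 0 fell. With scaling by total count 45 rose and 0 fell.

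The count of 43 leant on 1 library: without wt 24 h it was 14, and the other single libraries left between 30 and 50. With only the ago1D and wt libraries in the fit, 75 antisense RNAs were tested at 4, 10 and 24 h, with a median of 0.62, and 22 rose. The 44 other non-coding RNAs tested there had a median of -0.10. Over all 6 times 3 antisense RNAs rose in that setting. With no time term 1 rose at 4, 10 and 24 h and 3 over all 6 times. The all-times count of 20 was 10 without wt 24 h and 31 without ago1D 0 h. The list's median difference by matched time was 0.23, 0.60, 0.55, 0.59, 0.30 and 1.14 on the log2 scale at 0, 1, 2, 4, 10 and 24 h, above that of all features at each time. The ago1D library at 24 h had the fewest feature counts of the 12, and the part of depth in these gains was not tested.

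SPNCRNA.770, of which 89.4% lies opposite gar2, was higher in ago1D at each of the 6 times. Its counts were 13, 6, 21, 20, 21 and 29 in ago1D at 0, 1, 2, 4, 10 and 24 h, against 1, 0, 0, 0, 1 and 1 in wt. The pooled level was 28.1-fold higher in ago1D (exact 95% interval 9.36 to 138, counting error only) and no library overlapped. Its partner gar2, a nucleolin-like gene of the nucleolus, also rose, by 1.91 on the log2 scale (adjusted p of 0.00261, edgeR quasi-likelihood test).

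SPNCRNA.857, opposite SPACUNK4.17, had 42.0, 51.5 and 368 CPM in ago1D and 2.96, 9.73 and 3.60 CPM in wt at 4, 10 and 24 h, with a log2 fold change of 4.29 (SE of 0.53 and adjusted p of 6.26e-05). SPNCRNA.724, opposite the splicing helicase gene prp22, had 23.7, 27.1 and 139 CPM in ago1D and 2.96, 2.43 and 7.20 CPM in wt (log2 fold change 3.80, SE 0.52, adjusted p of 0.000158). Both had their highest value in ago1D at 24 h. SPNCRNA.1005, opposite the helicase gene hca4, was more even, with 32.9, 20.4 and 48.6 CPM in ago1D against 0, 0 and 3.60 CPM in wt, and a pooled level over all 6 times that was 26.4-fold higher (interval 7.04 to 223). All 3 passed without each single library in edgeR's quasi-likelihood test.

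SPNCRNA.913, opposite shd1, had 20.1, 17.6 and 160 CPM in ago1D and 2.96, 0 and 0 CPM in wt at 4, 10 and 24 h. SPNCRNA.990, opposite the centromere-binding gene cbh1, had 33 counts in ago1D at these times against 0 in wt, at least 7.91-fold higher with a floor of 3 counts over the group. SPNCRNA.639, opposite mcp60, had 20.1, 13.6 and 125 CPM in ago1D against 0, 2.43 and 0 CPM in wt. Without wt 24 h, SPNCRNA.990 and SPNCRNA.639 did not pass (adjusted p of 0.0529 and 0.116, edgeR quasi-likelihood test), while SPNCRNA.913 did. SPNCRNA.1072 and SPNCRNA.957, which are antisense, and SPNCRNA.472, which has no gene opposite, had 21, 17 and 14 counts in ago1D at these times and 0 in wt, and did not pass without wt 24 h (adjusted p of 0.382, 0.316 and 0.257). The last 2 also did not pass without ago1D 4 h or ago1D 10 h, nor SPNCRNA.957 without wt 10 h. SPNCRNA.1475, opposite tra1, had 35 counts over the 6 ago1D libraries and 0 over the 6 wt libraries, at least 8.93-fold higher, but was too low in each library to be tested.

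The genes opposite the gained antisense RNAs were also looked up. Of the 43, 41 had a tested partner, and 3 partners rose and 0 fell at 4, 10 and 24 h, where 4.37% of all features were higher and 3.71% lower. The median log2 fold change of the partners was 0.46, with a range between -0.30 and 1.91, where all features had -0.02. The partner of SPNCRNA.990, cbh1, had a log2 fold change of 1.15 (adjusted p of 0.139), and that of SPNCRNA.913, shd1, had -0.08 (adjusted p of 0.875, edgeR quasi-likelihood test).

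Heat-shock chaperone genes were called in 1 direction. Of 18 tested, 9 rose and 0 fell in ago1D at 4, 10 and 24 h, with a list median of 0.77 on the log2 scale, beside 4.37% of all features higher and a median of -0.02. These were hsp16, ssa1, hsp104, hsp78, hsp90, bip1, sti1, psi1 and wos2. With all times in the fit 8 rose and 0 fell. At the labelled 0 h the list's median difference was -0.93, with 6 of 18 members above 0, and at the other times it was between 0.50 and 2.08. The small heat-shock protein gene hsp16 had 488, 585 and 556 CPM in ago1D against 5.91, 53.5 and 36.0 CPM in wt (log2 fold change 4.13, SE 0.38, adjusted p of 2.00e-06). The lowest of its 6 ago1D libraries, at 341 CPM, was above the highest wt library.

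The Hsp70 gene ssa1 had 550, 719 and 910 CPM in ago1D and 68.0, 114 and 176 CPM in wt at these times, a log2 fold change of 2.70 (SE of 0.27 and adjusted p of 4.27e-06). The disaggregase gene hsp104 had 383, 536 and 528 CPM in ago1D and 124, 114 and 148 CPM in wt (log2 fold change 1.90, SE 0.24). Its mitochondrial relative hsp78 had a log2 fold change of 1.86 (SE of 0.27 and adjusted p of 0.000267 by edgeR's quasi-likelihood test). For ssa1, hsp104 and hsp78 the strains did not overlap at any of the 6 times. The count of 9 was 5 without ago1D 4 h or without wt 10 h.

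The Sty1-Atf1 stress genes, targets of the stress kinase and its transcription factor, were partly higher. Of 16 tested, cta3, pyp2 and ctt1 rose and 0 fell at 4, 10 and 24 h, with a list median of 0.62. Among all features 4.37% were higher and 3.71% lower. Over all 6 times 2 of 15 rose and 0 fell. At the labelled 2 h the list's median difference was -1.29, with 4 of 16 members above 0, and at the other times it was between 0.36 and 0.86. The tyrosine phosphatase gene pyp2, a brake on Sty1, had 27.4, 42.0 and 153 CPM in ago1D and 5.91, 7.30 and 14.4 CPM in wt at 4, 10 and 24 h (log2 fold change 2.81, SE 0.44, adjusted p of 0.000499). The catalase gene ctt1 had 226, 248 and 326 CPM in ago1D against 172, 139 and 144 CPM in wt, an adjusted p of 0.0442 by edgeR's quasi-likelihood test. It kept its call without ago1D 4 h, and lost it without ago1D 10 h, ago1D 24 h or any wt library, where the adjusted p reached 0.200.

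Several iron-uptake genes rose in ago1D. Of 10 tested genes of the iron regulon, 5 rose and 0 fell at 4, 10 and 24 h, beside 4.37% of all features higher, with a list median of 1.08 and 2 members below 0. Over all 6 times, 4 of 9 rose. The list's median difference was 0.99, 0.91, 0.80, 0.97, 0.77 and 1.23 on the log2 scale at 0, 1, 2, 4, 10 and 24 h, where that of all features lay between -0.04 and 0.02, and between 7 and 9 of the 10 members were above 0 at a time. The multicopper oxidase gene fio1, which with the permease Fip1 takes up reduced iron, ranged over 71.2, 101 and 118 CPM in ago1D and 9.73, 21.5 and 38.9 CPM in wt (lowest, median and highest of 6). No library overlapped, and its log2 fold change was 2.00 (SE 0.34, adjusted p of 0.00108) at 4, 10 and 24 h and 2.07 (SE 0.27) over all 6 times.

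The permease gene fip1 ranged over 51.8, 75.6 and 96.8 CPM in ago1D and 21.3, 30.9 and 43.8 CPM in wt, with no overlap, and passed over all 6 times with a log2 fold change of 1.29 (SE of 0.18 and adjusted p of 9.04e-05, edgeR quasi-likelihood test). At 4, 10 and 24 h its adjusted p was 0.0133, and it did not pass without ago1D 4 h, ago1D 10 h or wt 4 h (up to 0.0970). The ferric reductase gene frp1 ranged over 10.3, 23.2 and 63.0 CPM in ago1D and 0, 2.69 and 8.54 CPM in wt with no overlap. The ferrichrome synthetase gene sib1 and the siderophore transporter gene str2 were the remaining calls. The count of 5 was 2 without ago1D 4 h or wt 10 h and 3 without wt 24 h.

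Phosphate genes moved both ways at 4, 10 and 24 h, where 4.37% of all features were higher and 3.71% lower. Of 6 tested, the acid phosphatase genes pho4 and pho1 rose, while the phosphate transporter gene pho84 and the glycerophosphodiester transporter gene tgp1 fell. The annotation calls Pho4 repressible by thiamine, so its place in a phosphate list is doubtful. Small RNA of pho84 stood at 639, 582 and 333 CPM in ago1D against 1958, 1898 and 976 CPM in wt at 4, 10 and 24 h (log2 fold change -1.64, SE 0.28, adjusted p of 0.00108). That of pho4 stood at 305, 232 and 410 CPM in ago1D against 124, 85.2 and 61.2 CPM in wt (1.77, SE 0.28, adjusted p of 0.000682). The strains did not overlap at these times for either gene. Over all 6 times 0 of 5 tested rose and pho84 alone fell, and at the labelled 0 h the differences of pho1 and pho4 were -2.32 and -0.78. The call of tgp1 was lost without ago1D 4 h, ago1D 24 h or wt 24 h, with an adjusted p of up to 0.0976, and with scaling by total count (edgeR quasi-likelihood test).

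Among other losses were 3 genes for transporters and nitrogen compounds. SPBC530.02, a transporter gene, had 1.83, 4.07 and 13.9 CPM in ago1D and 38.4, 75.4 and 472 CPM in wt at 4, 10 and 24 h. Its log2 fold change was -4.51 (SE 0.61, adjusted p of 0.00013), and the strains did not overlap at any of the 6 times. The major facilitator family gene mfs2 had 23.7, 12.2 and 41.7 CPM in ago1D against 62.1, 73.0 and 871 CPM in wt (-2.81, SE 0.44, adjusted p of 0.000499).

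SPAC869.04, a formamidase-like gene, had 254, 429 and 507 CPM in ago1D and 911, 1295 and 2131 CPM in wt at these times, with a log2 fold change of -1.81 (SE of 0.26 and adjusted p of 0.000246). All 3 passed at 4, 10 and 24 h without each single library in edgeR's quasi-likelihood test. Over all 6 times SPAC869.04 did not pass (adjusted p of 0.522, same test), with differences of 3.54 at the labelled 0 h and -6.61 at 2 h. The call of mfs2 over all 6 times was lost without ago1D 24 h, wt 10 h or wt 24 h (up to 0.0629). Of 15 tested genes for nitrogen and amino acid uptake, dip5 rose and the oligopeptide and peptide transporter genes isp4 and ptr2 fell at 4, 10 and 24 h. Among all features 4.37% were higher and 3.71% lower. Over all 6 times dip5 alone rose and 0 of 14 fell. The difference of isp4 was 3.46 at the labelled 0 h and -4.38 at 2 h. Small RNA of isp4 stood at 1021, 1290 and 813 CPM in ago1D against 2561, 4032 and 1746 CPM in wt at 4, 10 and 24 h. It did not pass without ago1D 4 h or ago1D 10 h (up to 0.0652), and ptr2 did not pass without ago1D 4 h, ago1D 10 h, wt 10 h or wt 24 h (up to 0.140) or with scaling by total count.

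Weaker calls lay among the most changed coding genes. The Elongator subunit gene elp5 had 12.8, 12.2 and 0 CPM in ago1D against 38.4, 36.5 and 64.8 CPM in wt at 4, 10 and 24 h, and did not pass without ago1D 4 h or wt 24 h (adjusted p up to 0.0955) or with scaling by total count. The 90S preribosome gene cms1 had 21.9, 9.5 and 13.9 CPM in ago1D against 44.4, 48.7 and 50.4 CPM in wt, and the pantothenate transporter gene liz1, which lies wholly opposite fyv4, had 7.30, 13.6 and 13.9 CPM in ago1D against 29.6, 34.1 and 43.2 CPM in wt. Both lost their call with scaling by total count, in DESeq2 and without most single libraries, cms1 keeping it without wt 4 h alone and liz1 without wt 10 h alone (up to 0.168 and 0.154 otherwise). SPCC663.08c, a short chain dehydrogenase gene wholly opposite SPNCRNA.1213, had 31.0, 28.5 and 34.7 CPM in ago1D against 2.96, 0 and 3.60 CPM in wt, and did not pass without wt 24 h (0.0985, edgeR quasi-likelihood test).

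Many cytosolic ribosomal protein genes fell at 4, 10 and 24 h. Of 137 tested, 65 fell and 0 rose in ago1D at 4, 10 and 24 h, with log2 fold changes of the 65 between -1.59 and -0.77 and a list median of -0.89, beside 3.71% of all features lower. Over all 6 times 0 passed in edgeR and 0 in DESeq2, 6 were lower at an unadjusted p below 0.05 in edgeR, and the list median was -0.29. The gene rpl302, a copy for large-subunit protein L3, had 124, 107 and 90.3 CPM in ago1D against 195, 336 and 396 CPM in wt (log2 fold change -1.42, SE 0.27, adjusted p of 0.00276), with no overlap. Most of these proteins have 2 near-identical gene copies, so the copy that a count belongs to is uncertain.

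This block depended on scaling and on single libraries. With scaling by total count 3 of the 137 fell, with a list median of -0.63 where that of all features was 0.25. Leaving out 1 library gave 8 without ago1D 24 h, 10 without wt 24 h, 19 without wt 10 h, 25 without ago1D 10 h, 32 without ago1D 4 h and 101 without wt 4 h. By labelled time the list's median difference was -1.73, 0.29, 1.92, -0.31, -0.87 and -1.42 on the log2 scale at 0, 1, 2, 4, 10 and 24 h.

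**Figure D4:**
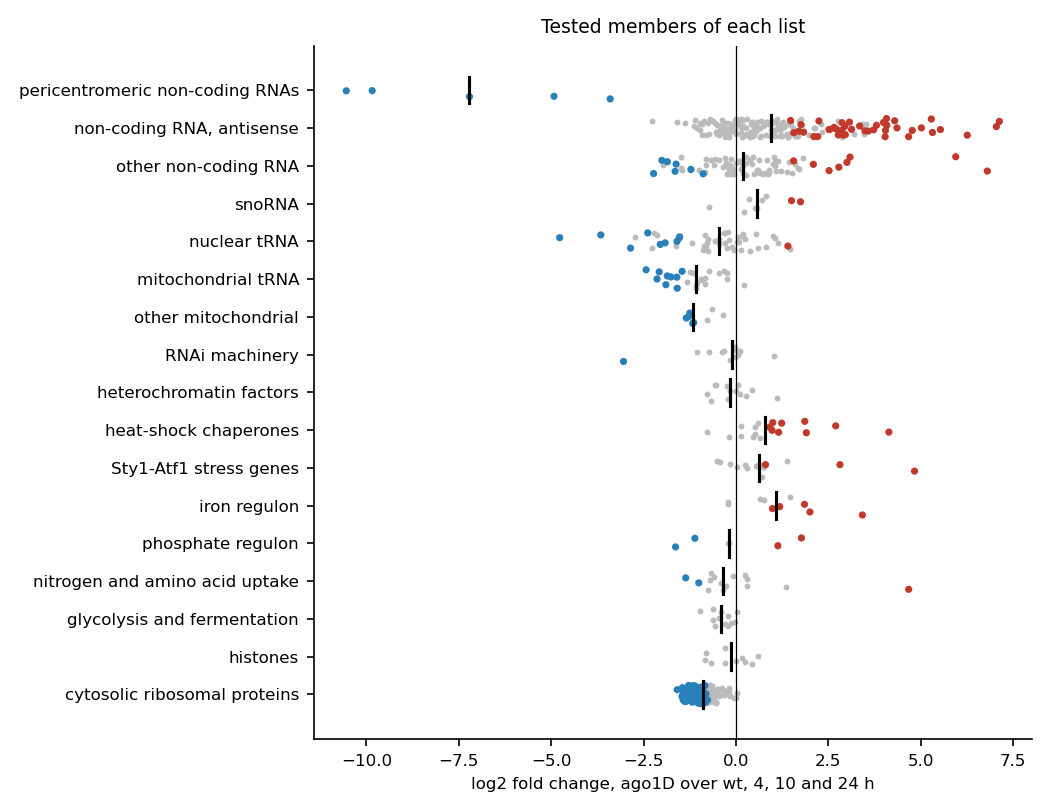
Log2 fold change of ago1D over wt at 4, 10 and 24 h (x) for the tested members of 17 lists (rows), with red points for members that rose, blue for those that fell, grey for those that did not pass, and a black bar at the list median. All 5 pericentromeric RNAs lie left of 0, the 43 antisense RNAs, 9 chaperone genes and 5 iron genes that passed lie right of 0, and the 65 ribosomal protein genes that passed lie left of 0.

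Part of the mitochondrial tRNAs also fell. Of 25 tested, 9 fell and 0 rose at 4, 10 and 24 h, beside 3.71% of all features lower, with a list median of -1.08, and with scaling by total count 8 fell. SPMITTRNAARG.02, a mitochondrial arginine tRNA, had 330.5, 118 and 125 CPM in ago1D against 1322, 1042 and 410.4 CPM in wt (log2 fold change -2.43, SE 0.34, adjusted p of 0.000216), with no overlap. SPMITTRNATYR.01, for tyrosine, had 716, 256 and 452 CPM in ago1D against 2129, 1514 and 1192 CPM in wt (-1.86, SE 0.31, adjusted p of 0.000965). The count of 9 was 3 without ago1D 10 h in edgeR's quasi-likelihood test. With all times in the fit 4 of 25 fell, 2 without ago1D 1 h, wt 4 h or wt 10 h, 9 without ago1D 2 h and 0 without ago1D 4 h or ago1D 10 h. By labelled time 24 of 25 were above 0 at 2 h, 0 at 4 and 10 h and 12 at 24 h. Of the 8 other mitochondrial features tested, 5 fell, but this count was 2 without ago1D 4 h, 0 without ago1D 10 h, ago1D 24 h or wt 24 h, and 0 with scaling by total count.

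Nuclear tRNAs changed in both directions. Of 171 in the files, 50 passed the filter, and 9 fell and 1 rose at 4, 10 and 24 h, with a list median of -0.46, beside 3.71% of all features lower and 4.37% higher. SPCTRNAPHE.05, a phenylalanine tRNA, had 16.4, 10.8 and 13.9 CPM in ago1D and 53.2, 139 and 756 CPM in wt (log2 fold change -3.66, SE 0.52, adjusted p of 0.000231), without overlap. SPBTRNAARG.07, an arginine tRNA, had 3.65, 0 and 0 CPM in ago1D against 26.6, 43.8 and 75.6 CPM in wt. Over all 6 times 3 of 51 rose and 0 fell, and at 4, 10 and 24 h the 9 became 2 without wt 24 h and 4 without ago1D 10 h. Reads that fit several tRNA genes were set aside, so these levels describe the uniquely placed part and the gene of origin is uncertain.

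The snoRNA class did not pass as a whole, and 2 of its members rose. The class took 1.08% ± 1.30 of feature counts in ago1D and 0.488% ± 0.641 in wt (SD, n = 6 each), and its share was higher in ago1D at 6 of 6 times, by a mean log2 difference of 1.24. The exact two-sided sign-flip test gave p = 0.0312, the smallest possible, and 0.109 after adjustment over the 7 classes. As for the pericentromeric class, this test could hardly pass a class and cannot decide. The unpaired exact permutation test gave p = 0.178 (adjusted 0.465). The median difference of the 9 tested members was -0.01 at 0 h and -0.02 at 4 h, with 4 of 9 above 0 at each, and between 0.31 and 2.17 at the other times. Of these members 2 rose and 0 fell at 4, 10 and 24 h, beside 4.37% of all features higher. SPNCRNA.1038, the box H/ACA snoRNA snR90 that guides RNA modification, had 792, 1129 and 5522 CPM in ago1D against 272, 545 and 1436 CPM in wt (log2 fold change 1.5, SE 0.30, adjusted p of 0.005). SPNCRNA.814, annotated as a snoRNA primary transcript, had 84.0, 179 and 521 CPM in ago1D against 47.3, 58.4 and 86.4 CPM in wt (1.74, SE 0.31, adjusted p of 0.00139, edgeR quasi-likelihood test). The strains overlapped for both when the times were pooled, while ago1D was higher at each of the 3 times.

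None of the 7 class shares passed the sign-flip test, which with 6 times could hardly pass any class, as given above. The other 5 had adjusted p values between 0.328 and 0.438 in exact sign-flip tests. Mitochondrial tRNA took 19.4% ± 10.1 of feature counts in ago1D and 26.9% ± 12.1 in wt and was lower in ago1D at 5 of 6 times. Protein-coding genes took 51.9% ± 9.81 in ago1D and 48.5% ± 13.8 in wt, and nuclear tRNA took 18.01% ± 3.51 in ago1D and 15.3% ± 5.68 in wt (SD, n = 6 each).

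Lists with no call in edgeR at 4, 10 and 24 h were the 13 tested genes of glycolysis and fermentation (median -0.41), 10 histone genes (-0.14), 6 zinc genes (0.34) and 8 wtf spore-killer genes (0.89). At an unadjusted p below 0.05 there were 1, 4, 0 and 3 such genes, and DESeq2 called 1 gene of glycolysis, 0 histone genes, 0 zinc genes and 1 wtf gene. The histone and phosphate medians changed sign with scaling by total count, to 0.14 and 0.10, beside 0.25 for all features. Of 55 tested mug genes, named for upregulation in meiosis, mug108 and mug24 rose, a share near the 4.37% of all features. The gene mug108, which lies wholly opposite rga3, had 51.1, 108 and 201 CPM in ago1D against 8.87, 4.87 and 28.8 CPM in wt (log2 fold change 3.26, SE 0.49, adjusted p of 0.000364, edgeR quasi-likelihood test).

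Markers of mating type were low in both strains, which are labelled h+. The summed level of the P-cell genes map2 and map3, the P-factor pheromone and the receptor for M-factor, was between 20.7 and 111 CPM in ago1D and between 8.54 and 108 CPM in wt. The summed level of 5 detected M-cell genes was between 45.7 and 85.5 CPM in ago1D and between 52.5 and 102 CPM in wt, of which the transporter gene mam1 gave 20.8 to 56.1 CPM in ago1D and 48.6 to 76.8 CPM in wt. The genes mat1-Mc and mat1-Mi had no count in either strain, and mat1-Pc and mat1-Pi were not matched by name. None of these 7 detected markers passed.

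Time was then taken into account. The number of features at least 4-fold higher in ago1D at one time (difference of log2 CPM with 5 CPM added) was 145, 96, 196, 45, 42 and 214 at 0, 1, 2, 4, 10 and 24 h. Those are 3.12%, 2.07%, 4.22%, 0.97%, 0.905% and 4.61% of 4641 features. The number at least 4-fold lower was 120, 42, 121, 7, 42 and 232, or 2.59%, 0.905%, 2.61%, 0.151%, 0.905% and 5% of the same features. The 4 and 10 h pairs thus differed at fewer features than the 0, 2 and 24 h pairs, and each pair has 1 library a strain and no test. Depth also differed: in ago1D 1 count made 6.95 CPM at 24 h, against 1.83 CPM at 4 h and 1.36 CPM at 10 h. Fewer counts thus reach 4-fold at 24 h, and the part of depth in these numbers was not tested.

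A few features stood out at every time. SPCC13B11.02c, hsp16, SPAPB24D3.07c, SPNCRNA.770 and SPCC737.04, the last named after its values were seen, were at least 4-fold higher in ago1D at all 6 times. SPNCRNA.232, SPNCRNA.359 and SPNCRNA.373 were at least 4-fold lower at all 6 times. For 4, 10 and 24 h together 19 features were higher and 5 lower past this fold. The strains did not overlap at 4, 10 and 24 h for 1117 of 4641 features (24.1%), 320 of them among the 375 that passed. They did not overlap over all 6 times for 73 of 4220 (1.73%), 62 of them among the 182 that passed.

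The pattern of differences across features was most alike between the late times. Pearson r over 4641 features was 0.52 between the differences at 4 and 10 h, 0.42 between 4 and 24 h and 0.48 between 10 and 24 h. It was -0.43 between those at 0 and 2 h. Nitrogen and amino acid uptake genes had a median difference of 2.54 at 0 h and -1.83 at 2 h, while ribosomal protein genes had -1.73 and 1.92 at these labelled times. The iron list and the antisense list lay above 0 at all 6 times and the pericentromeric list below 0, at -5.88, -3.66, -4.18, -3.23, -3.79 and -4.50.

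**Figure D5:**
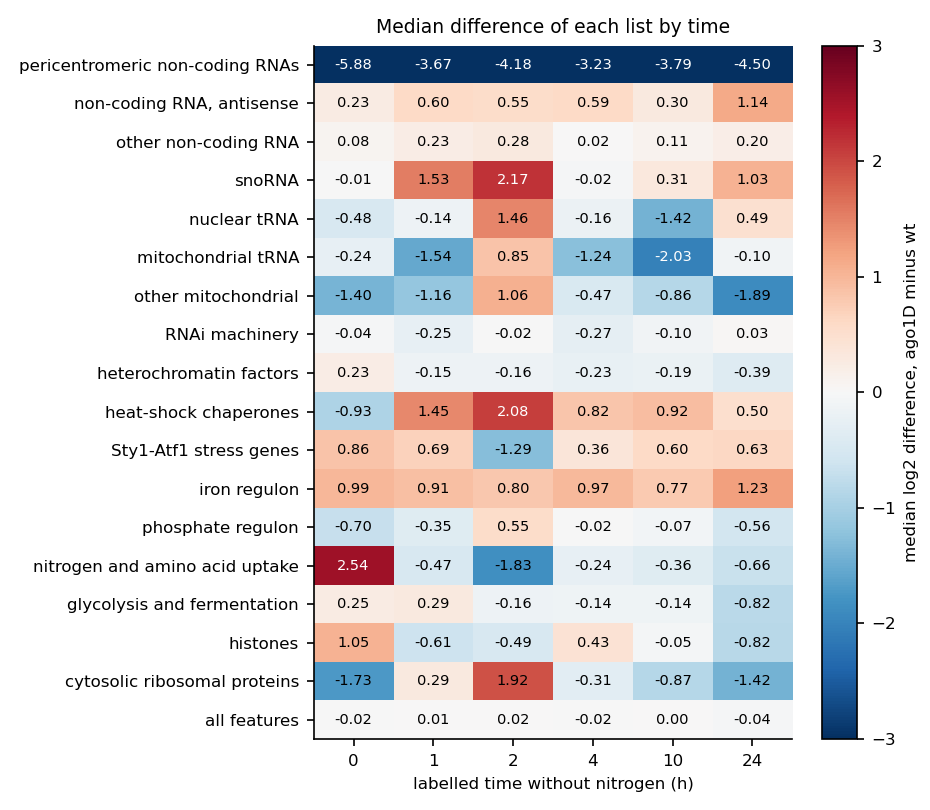
Median difference of log2 CPM, ago1D minus wt (colour and number), for 17 lists and all features (rows) at each labelled time in h (columns). The pericentromeric row lies below 0 and the iron and antisense rows above 0 at all 6 times, while the ribosomal protein and nitrogen uptake rows have opposite signs at 0 and 2 h.

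Whether the strain difference departed between the late and early times was tested directly. None of 4220 features passed for the difference at 4, 10 and 24 h against that at 0, 1 and 2 h (0% in edgeR's quasi-likelihood test, 213 at an unadjusted p below 0.05), and DESeq2 called 2. Without ago1D 0 h the count was 255, 49 of them with a higher and 206 with a lower difference at the late times. Without ago1D 2 h it was 3. The doubtful early labels enter this test, and their part in it was not tested.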

How the data were processed

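The deposited values are raw read counts per annotated transcript, 1 file per library, with 6878 features and 5 HTSeq summary lines that were left out. Per the submitters' processing notes, the authors used cutadapt (no version is named), Bowtie2 2.1.0, HTSeq 0.6.1 and the assembly ASM294v2. How HTSeq treated strand is not stated there. The ASM294v3 annotation was used for names, classes and overlaps alone (6722 of 6878 identifiers matched, 97.7%). As its assembly differs from that of the files, no coordinates or sequences are given.

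Strains were compared in edgeR 4.0.16 (R 4.3.3) by its quasi-likelihood F-test after TMM normalisation, with its low-count filter by strain (minimum count 10), a minimum that must be reached in as many libraries as a strain has in the fit, allowing for library size. Terms were strain and labelled time. All 4 strains entered the fits (24 libraries, or the 12 of 4, 10 and 24 h), since each strain and time has 1 library, so that other strains also set the estimate of spread (biological coefficient of variation 0.297 and 0.226). A feature passed at an adjusted p below 0.05, by Benjamini-Hochberg over every feature in the fit. A standard error is the log2 fold change divided by the root of F. A further fit tested the difference at 4, 10 and 24 h against that at 0, 1 and 2 h. Differences at 1 time use log2(CPM + 5). Pooled ratios divide summed counts by summed effective library sizes, with exact 95% intervals that cover counting error only, or a floor of 3 counts over the group. Shares of 7 classes, with 0.5 counts added to each class, were tested by exact sign flips over 6 matched times (64 patterns). The self-test on simulated counts was run for the fits.

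The members and gene lists were chosen with earlier results of these data known, and the lists came from general knowledge of this yeast. Named features are ago1, dcr1, clr4, tlh2, SPCC13B11.02c and pericentromeric RNAs. They also comprise the 8 largest non-overlapping rises and falls (mean log2 CPM above 4) among passing coding and non-coding features, up to 4 members of smallest p per list, and features with at least 30 pooled counts in one strain and at most 2 in the other. Alternatives were other scalings, DESeq2 1.42.0, no filter, no time term, 2 strains only, and each library or time left out.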

Additional observations from a re-analysis of the deposited data

Results flagged for a closer look

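The 6 matched differences, ago1D minus wt, were checked by Dixon's test for 1 time that stands apart from the other 5. This was done for 114 sets of values, the named features among the 4641 tested (log2 CPM with 5 CPM added) and the 7 class shares (log2 share). Chance marks about 1 in 20 such groups, and 10 were marked here. The early labels of ago1D are doubtful, and the part of this in the marked values at 0 and 2 h was not tested.

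Among non-coding RNAs, the pericentromeric SPNCRNA.232 stood apart at 0 h with a difference of -9.56, where the other 5 times lay between -7.26 and -5.95. SPNCRNA.913, antisense to shd1, stood apart at 24 h with 5.04, where the next highest difference was 2.21. SPNCRNA.870 had 4.45 at 24 h, with the next highest at 1.499.

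Among genes of RNA interference and heterochromatin, dsh1, which acts with the RNA polymerase complex, had 0.0931 at 2 h and between -1.04 and -0.74 at the other times. The gene clr1, of the histone deacetylase complex SHREC, had 0.884 at 0 h and at most -0.37 at the others.

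The catalase gene ctt1 had -2.15 at 2 h, with the next lowest difference at 0.0844. The acid phosphatase gene pho1 had -2.32 at 0 h, with the next lowest at 0.0531. The histone H2A gene hta2 had 1.34 at 0 h, with the next highest at -0.46. SPBTRNALEU.05, a nuclear leucine tRNA, had 2.48 at 2 h, with the next highest at -0.98, and the mitochondrial SPMIT.04 had 1.10 at 2 h, with the next highest at -0.77.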

How the results depend on the processing

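With no time term 50 features passed over all 6 times and 38 at 4, 10 and 24 h. With only the ago1D and wt libraries 28 passed over all 6 times, and DESeq2 called 2 in the late against early test. Leaving out 1 library gave between 111 and 342 over all 6 times, between 142 and 441 at 4, 10 and 24 h and between 0 and 255 in the late against early test, and leaving out a whole time gave between 79 and 330 over all 6 times. The pericentromeric share (mean log2 difference -7.924, with 0.5 counts added to the class) passed in the unpaired test alone. The sign-flip test could hardly pass any class. The causes were not tested. Other scalings, DESeq2 and no filter left the first 2 counts within 1.5 times. No called fold change of a named feature changed sign. At 4, 10 and 24 h, 42 of 71 named calls passed without each single library, 59 with scaling by total count, 66 in DESeq2 and 18 with no time term. Over all 6 times 29 of 36 passed without each single library. The ago1D library at 24 h held 117245 feature counts, the lowest of the 12, so its low counts carry the widest counting error. Replicate numbers stand for labelled times, which are in the main fit as a block.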
